A study of Homo sapiens with 12 samples.

Results

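The CLK genes (CLK1, CLK2, CLK3 and CLK4) and the SRPK genes (SRPK1 and SRPK2) encode the kinases that phosphorylate SR proteins, and all 6 were found by symbol among 57820 gene IDs of the deposited gene counts. The deposited splicing tables hold 60 events of these 6 genes among 56092, of which 34 had enough reads to be tested. RNA came from AsPC-1 cells, a long-established human pancreatic cancer line. Every culture was transfected with an siRNA, either a scrambled one (siControl) or one against ARNT (siARNT), and each transfected culture was divided the next day, 1 share going to 1% O2 for 24 h (hypoxia) and the other staying at 21% O2 (normoxia). RNA was taken 48 h after transfection, and each of the 4 groups (normoxia siControl, normoxia siARNT, hypoxia siControl, hypoxia siARNT) has 3 replicates, A, B and C. The replicates were parallel wells, so p-values measure the spread between wells. The main fits treated the normoxic and hypoxic shares of a well as separate samples, without pairing them. Fits with the well, taken from the siRNA and the replicate letter, as a replicate block are among the alternatives. No culture without an siRNA was analysed here, and all 12 libraries come from 1 cell line.

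SR proteins are splicing factors with a tail of repeated arginine and serine residues. SRPK kinases phosphorylate that tail mainly in the cytoplasm, which lets the proteins enter the nucleus, and CLK kinases add phosphate in the nucleus, which releases SR proteins from nuclear speckles and changes their activity. The CLK genes are themselves known for alternative splicing: an internal exon can be skipped, which leaves a message without a full kinase domain, and the introns beside it can stay in the RNA. ARNT is the partner of the HIF alpha subunits, the transcription factors that are stable at low oxygen.

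Gene counts totalled 38.5 to 84.3 M per library. ARNT stood at 62.4 ± 1.53 and 69.1 ± 3.81 counts-per-million (CPM, scaled by the TMM method) in the siControl groups in normoxia and hypoxia, and at 13.4 ± 0.56 and 15.3 ± 1.04 CPM with siARNT (SD, n = 3). Of 10 epithelial and ductal markers, 9 were above 1 CPM in some library, and TFF1 was below it in all. The 16 matched markers of fibroblasts, white blood cells, endothelium, acinar and islet cells were each below 1 CPM in every library, and their summed level ran from 2.22 to 3.24 CPM. The slope of log2 counts on gene GC content, per 10 percentage points, was 0.42 in replicate B of normoxia siARNT and 0.23 in replicate C of hypoxia siARNT, against -0.21 to 0.12 in the other libraries.

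The retained introns and the skipped exon that most of the splicing results concern lie at the same place in all CLK genes, around exon 4 of the annotated coding transcripts. The exon is printed here so that the 4 genes can be compared. Each line gives the exon in capitals with 20 bases of the intron before it and 10 bases of the intron after it, 5′ to 3′ on the coding strand, from GENCODE 29 transcripts on GRCh38 that hold these introns:
CLK1: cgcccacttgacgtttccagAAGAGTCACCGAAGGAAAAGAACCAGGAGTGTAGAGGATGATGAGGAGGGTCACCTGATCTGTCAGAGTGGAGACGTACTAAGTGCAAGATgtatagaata
CLK4: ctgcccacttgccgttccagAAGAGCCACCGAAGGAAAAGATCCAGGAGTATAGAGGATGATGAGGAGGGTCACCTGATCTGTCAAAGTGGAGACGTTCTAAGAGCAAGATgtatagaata
CLK2: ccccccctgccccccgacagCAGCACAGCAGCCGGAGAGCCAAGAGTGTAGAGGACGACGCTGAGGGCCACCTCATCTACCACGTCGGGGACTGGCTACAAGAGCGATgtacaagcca
CLK3: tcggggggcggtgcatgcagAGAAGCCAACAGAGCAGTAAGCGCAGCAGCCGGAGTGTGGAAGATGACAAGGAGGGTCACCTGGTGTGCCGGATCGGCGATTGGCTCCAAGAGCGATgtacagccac

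The exon is 91 bases long in CLK1 (chr2:200860125-200860215, minus strand) and in CLK4 (chr5:178617344-178617434, minus strand). It is 88 bases long in CLK2 (chr1:155268708-155268795, minus strand) and 97 in CLK3 (chr15:74622120-74622216, plus strand). The deposited events also hold the CLK2 exon in a form of 85 bases, and the tested CLK2 retention is defined with that form. In each gene the printed exon lies inside the coding sequence, and none of these lengths is a multiple of 3, so skipping it shifts the reading frame. CLK1 and CLK4 share 85 of 91 bases of the exon, an identity of 93.4%, and the first 10 intron bases after it are the same in the lines above. Identity between the other pairs, CLK1 with CLK3 among them, was 62.6 to 66.3% after end-to-end alignment. Whether reads within this stretch were told apart between CLK1 and CLK4 was not tested. How the authors' counting treated them is not given in the sources used here. GENCODE 29 classes as targets of nonsense-mediated decay 1 of 1 transcript that skips the exon in CLK1, 1 of 2 in CLK4, 0 of 1 in CLK2 and 2 of 4 in CLK3. The intron after exon 4 is 378 bases long in CLK1, 395 in CLK4, 348 in CLK2 and 277 in CLK3. Its GC content is 26.2% in CLK1 and 30.4% in CLK4, against 51.7% in CLK2 and 48.7% in CLK3. The last 30 bases of that intron, with the acceptor AG in capitals, show how the 4 genes differ where it is spliced out:
CLK1: atatgactgagatttatttctctcttttAG
CLK4: cttacacctctttttccctcctcactctAG
CLK2: tctccccgaccctgctctctttcatttcAG
CLK3: ttctcatgcccaatttcttttctctcctAG

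Event coordinates in the deposited tables are in a build that the tables do not name. Of 24 distinct skipped exons of the 6 genes, none lay at its position in GRCh38 and 22 had the length of an annotated exon of the same gene. The exon above was therefore matched to its event by the lengths of 3 exons and 2 introns, and event positions are given as the tables have them.

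Hypoxia in siControl cells raised 3 CLK genes and lowered both SRPK genes. CLK1 rose 1.69-fold, CLK3 1.68-fold and CLK4 1.51-fold, while SRPK1 fell to 0.774 and SRPK2 to 0.8 of the normoxic level. CLK2, at 1.13-fold, did not pass the test. Calls were made where the adjusted p was below 0.05 (edgeR quasi-likelihood, Benjamini-Hochberg over 16999 genes). These 5 calls among 6 genes, 3 up and 2 down, stand beside 25.3% of all genes called in this comparison, 10.4% up and 14.9% down. The 3 replicates of hypoxia did not overlap those of normoxia in any of the 6 genes, CLK2 included, which was so for 46.8% of all genes.

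CLK1, a dual-specificity kinase of the nucleus, stood at 98.8, 90.2 and 97.4 CPM in replicates A, B and C of normoxia siControl and at 164.5, 161 and 158.5 CPM in hypoxia siControl. In normoxia siARNT it was 94.7, 77.4 and 91.6 CPM, and in hypoxia siARNT 128.5, 114.6 and 110.3 CPM. Every hypoxic library was thus above every normoxic one, and the hypoxic siControl libraries were above all others. The log2 fold change of hypoxia was 0.76 in siControl (SE 0.08, adjusted p 5.83e-05 by edgeR) and 0.42 in siARNT (SE 0.08, adjusted p 0.02 by edgeR).

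CLK4, the closest relative of CLK1, had a similar order of groups. It stood at 28.2, 25.6 and 28.5 CPM in normoxia siControl, 26.8, 22.7 and 27.9 in normoxia siARNT, 43.2, 39.7 and 41.6 in hypoxia siControl and 35.4, 33.9 and 28.9 in hypoxia siARNT. The hypoxic siControl libraries again stood above all others, and replicate C of hypoxia siARNT was only just above the highest normoxic library. The log2 fold change of hypoxia was 0.60 in siControl (SE 0.10, adjusted p 8.04e-04 by edgeR) and 0.34 in siARNT (SE 0.10, adjusted p 0.0678 by edgeR, not called).

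CLK3, another kinase of this family, stood at 12.0, 13.4 and 11.4 CPM in normoxia siControl and at 20.6, 23.7 and 17.6 CPM in hypoxia siControl. It was at 13.6, 18.9 and 12.6 CPM in normoxia siARNT, where replicate B was the high one, and at 14.04, 14.36 and 16.51 CPM in hypoxia siARNT. The 2 siARNT groups overlapped. Its log2 fold change of hypoxia was 0.75 in siControl (SE 0.16, adjusted p 0.00392 by edgeR) and -0.01 in siARNT (SE 0.15, adjusted p 0.981 by edgeR).

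CLK2, which also phosphorylates SR proteins in the nucleus, stood at 32.3, 36.2 and 34.2 CPM in normoxia siControl, 37.0, 41.1 and 38.1 in hypoxia siControl, 30.5, 36.8 and 31.1 in normoxia siARNT and 28.4, 32.1 and 35.6 in hypoxia siARNT. Its log2 fold change of hypoxia in siControl was 0.18 (SE 0.10, adjusted p 0.213 by edgeR). With counts corrected for gene GC content it was 0.20 and was called (adjusted p 0.00442).

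**Figure D1:**
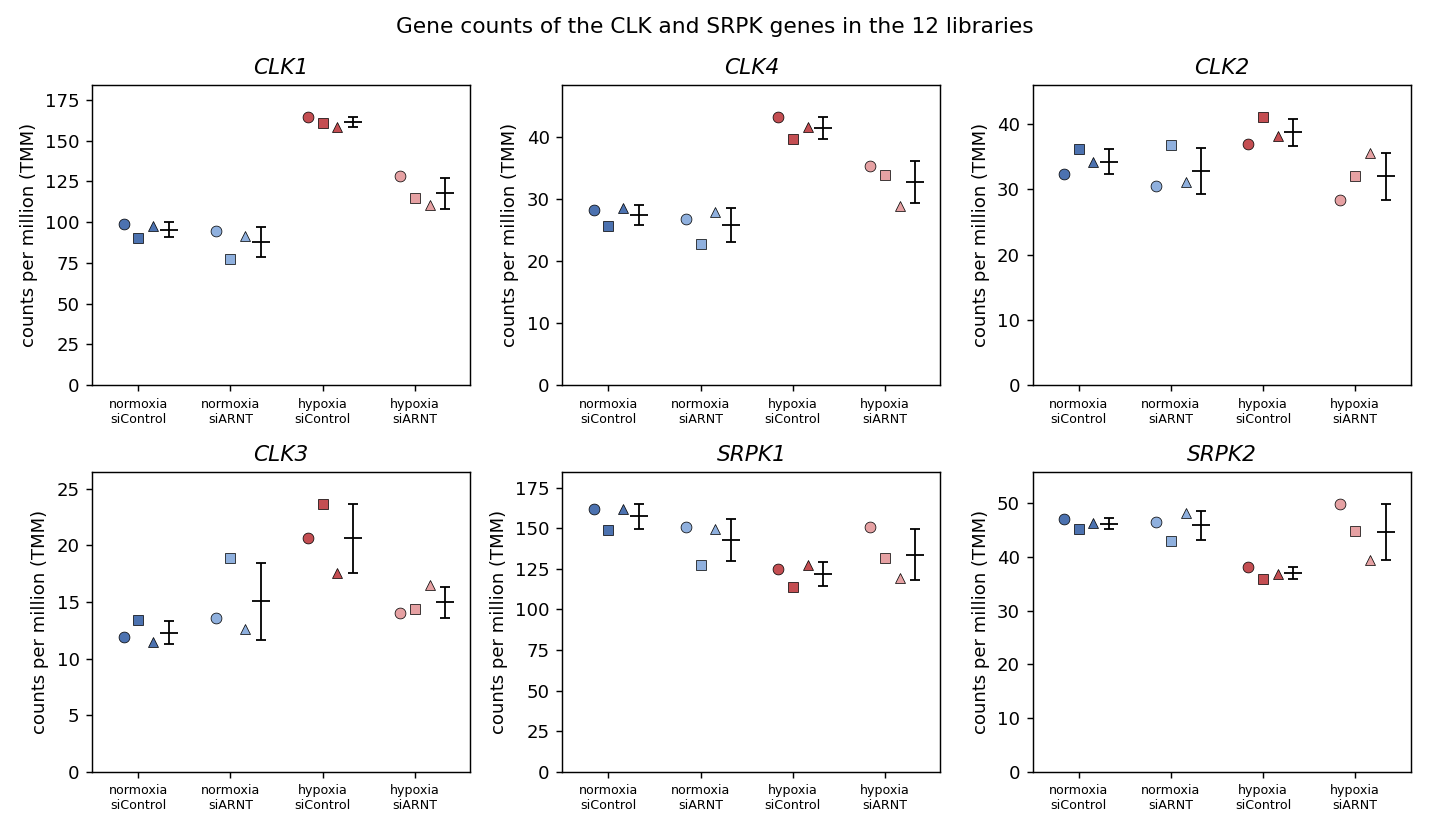
CPM (TMM-scaled, vertical axis from 0) of the 6 genes in each library, by group. Circles, squares and triangles are replicates A, B and C, and the bar beside them is the mean ± SD (n = 3). CLK1 and CLK4 were highest in hypoxia siControl, where SRPK1 averaged 121.8 and SRPK2 36.98 CPM.

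SRPK1, which prepares SR proteins for entry into the nucleus, stood at 162, 148.6 and 161.5 CPM in normoxia siControl and at 124.7, 113.5 and 127.1 in hypoxia siControl. With siARNT it was at 150.4, 127.5 and 149.5 CPM in normoxia and 150.4, 131.5 and 119.1 in hypoxia, 2 groups that overlapped. Its log2 fold change of hypoxia in siControl was -0.37 (SE 0.09, adjusted p 0.0114 by edgeR). That call was lost when replicate A or C of normoxia siControl or replicate B of hypoxia siControl was left out (adjusted p 0.0541, 0.0566 and 0.0593).

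SRPK2 stood at 47.1, 45.2 and 46.4 CPM in normoxia siControl and at 38.1, 35.9 and 36.9 in hypoxia siControl. With siARNT it was at 46.6, 42.9 and 48.2 CPM in normoxia and 49.9, 44.8 and 39.5 in hypoxia. The hypoxic siControl libraries were below all 9 others. Its log2 fold change of hypoxia in siControl was -0.32 (SE 0.08, adjusted p 0.0117 by edgeR). Without replicate A of normoxia siControl the adjusted p was 0.0508.

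Per base of exon, SRPK1 and CLK1 were the most abundant. In TMM-scaled CPM per kilobase (RPKM, over the union of GENCODE 29 exons), the normoxia siControl order was SRPK1 23.5 ± 1.14, CLK1 18.5 ± 0.893, CLK2 9.34 ± 0.535, SRPK2 7.29 ± 0.154, CLK4 3.46 ± 0.198 and CLK3 0.6 ± 0.05 (SD, n = 3). No neighbours in that order overlapped between libraries. In hypoxia siControl CLK1, at 31.2 ± 0.583 RPKM, was above SRPK1, at 18.2 ± 1.08. In hypoxia siARNT CLK1 (22.8 ± 1.84) and SRPK1 (20 ± 2.35) overlapped, as did CLK2 (8.72 ± 0.988) and SRPK2 (7.05 ± 0.82). The exon union of CLK3 is 20443 bases long, so its level per base depends on long annotated forms that these cells may not use. The unions of the other genes, 5170 bases in CLK1 and 7924 in CLK4 among them, likewise take in every annotated form. The order per base depends on these lengths.

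In siARNT cells hypoxia raised CLK1 alone among the 6 genes, against 4.09% of all genes called, 2.21% up. CLK1 and CLK4 were the 2 members whose groups did not overlap, which was so for 22.2% of all genes. The CLK1 call was lost when replicate A or B of hypoxia siARNT was left out (adjusted p 0.074 and 0.0673), and in a fit to these 6 libraries alone (0.164). CLK4 was called by edgeR without replicate C of that group (log2 fold change 0.42, adjusted p 0.0396) and with the GC correction (0.34, adjusted p 0.000149). It was also called with total count scaling (0.365, adjusted p 0.0334), a filter of at least 5 CPM (0.391, 0.02) and the GC correction with the letter block (0.337, 0.00028). Of 10 settings that kept all libraries of the comparison, 6 left CLK4 uncalled.

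ARNT knockdown in normoxia changed none of the 6 genes by edgeR, whereas 20.2% of all genes were called. No member had an unadjusted p under 0.05, with no share of all genes at that threshold given here. No member had groups without overlap, which was so for 46.5% of all genes. DESeq2 also called none. The log2 fold changes ran from -0.14 for SRPK1 to 0.30 for CLK3. With the GC correction SRPK2 was called up (0.13, adjusted p 0.0278), the opposite sign of its value without the correction (-0.01), and CLK2 was called down (-0.16, adjusted p 0.0278).

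ARNT knockdown in hypoxia lowered CLK1 to 0.73, CLK3 to 0.726 and CLK4 to 0.789 of the siControl level and raised SRPK2 1.21-fold. Those 4 calls of 6 stand beside 29.1% of all genes called, 14.7% down and 14.4% up. The groups did not overlap in 5 of the 6 genes, SRPK1 being the exception, against 40.3% of all genes. The log2 fold changes were -0.45 for CLK1 (SE 0.08, adjusted p 0.00141), -0.46 for CLK3 (SE 0.15, adjusted p 0.0415), -0.34 for CLK4 (SE 0.10, adjusted p 0.0177) and 0.27 for SRPK2 (SE 0.08, adjusted p 0.0232), by edgeR. CLK2 had -0.28 (SE 0.10, adjusted p 0.0519), just short of a call. It was called down with RLE scaling (adjusted p 0.0407), with DESeq2 (0.0402), with the letter as a replicate block (0.0183), with the GC correction (7.77e-05) and with that and the block (2.09e-05). Leaving out replicate B of normoxia siARNT or C of hypoxia siARNT also gave the call (0.0211 and 0.021). SRPK1 had 0.14 (SE 0.09, adjusted p 0.309) and was called with the GC correction and the block together (0.12, adjusted p 0.0336). The CLK1 call held without any 1 library. The CLK3 call was lost when replicate A or B of hypoxia siControl, replicate A or B of hypoxia siARNT, or replicate B of normoxia siControl was left out (adjusted p 0.0895, 0.124, 0.0966, 0.123 and 0.0506), with the 5 CPM filter (0.0508), and with total count scaling (0.1), under which the median of all genes moved to 0.10. The CLK4 call was lost without replicate A of hypoxia siControl (0.0731) or C of hypoxia siARNT (0.0626), and that of SRPK2 without replicate B or C of hypoxia siControl (0.085 and 0.0649) or A or B of hypoxia siARNT (0.105 and 0.0661), and with no filter on low counts (0.0558). This comparison and that of hypoxia in siControl share the hypoxia siControl libraries.

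Whether the response to hypoxia itself differed between siARNT and siControl was tested as an interaction, the log2 change of hypoxia in siARNT minus that in siControl. No member was called by edgeR with the filter on low counts and no block, against 4.69% of all genes called at the same adjusted threshold. At an unadjusted p under 0.05 there were 3 (CLK3, CLK1 and SRPK2), with no share of all genes at that threshold given here. The values were -0.33 for CLK1 (SE 0.12, adjusted p 0.128), -0.22 for CLK2 (SE 0.14, 0.388), -0.76 for CLK3 (SE 0.22, 0.0733), -0.25 for CLK4 (SE 0.14, 0.305), 0.28 for SRPK1 (SE 0.13, 0.249) and 0.28 for SRPK2 (SE 0.11, 0.183). All 4 CLK values were negative and both SRPK values positive. CLK3 was called by edgeR with the letter as a replicate block (-0.73, adjusted p 0.0435) and with no filter (-0.78, 0.0134), and by DESeq2 (-0.75, 0.0185). Leaving out 1 library gave a call for CLK1 (without replicate B of normoxia siARNT, 0.0397), CLK3 (without C of hypoxia siControl, 0.045) or SRPK2 (without C of hypoxia siARNT, 0.0464). With the GC correction CLK1 (-0.40, 9.58e-05), CLK3 (-0.85, 0.0397) and CLK4 (-0.33, 0.00231) were called.

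**Figure D2:**
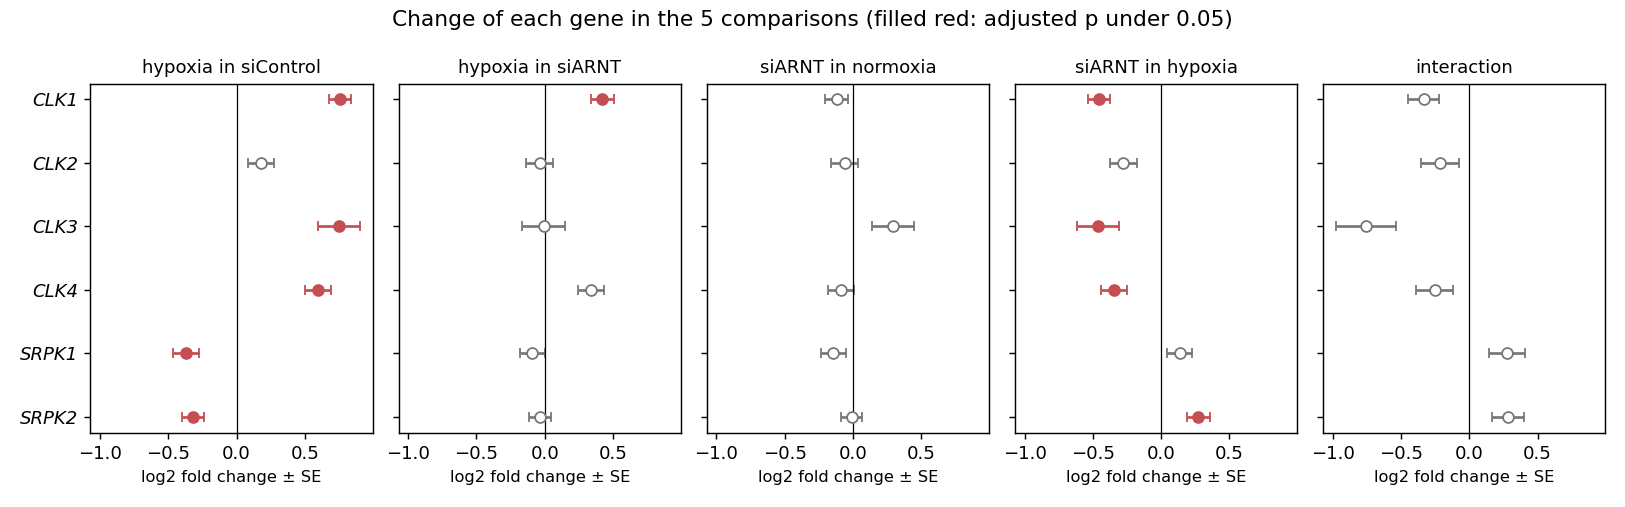
Log2 fold change (points) with its standard error (bars) for the 6 genes in the 5 comparisons, from edgeR fitted to 12 libraries. Filled red points have an adjusted p under 0.05: 5 genes for hypoxia in siControl, CLK1 for hypoxia in siARNT, 4 genes for siARNT in hypoxia, and none in the other 2 panels.

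Over the 12 libraries CLK1 and CLK4 followed each other (Pearson r = 0.983 of log2 CPM), as did SRPK1 and SRPK2 (r = 0.87), and CLK3 ran opposite to SRPK1 (r = -0.915). CLK1 and CLK2 were less alike (r = 0.374). Among 9854 genes that averaged 5 CPM or more, the closest to CLK1 were RSRP1 (r = 0.989), ZNNT1 (0.987) and CPNE8 (0.986). CPNE8 (0.99), FRMD3 (0.985) and CLK1 (0.983) were closest to CLK4. The nearest genes were PTK6 (0.99) and NFRKB for CLK2, and HNF4A (0.984), POLR2H and NHERF4 for CLK3. MRPS35 (0.992), STRAP and NUDCD1 were nearest to SRPK1, and TMEM70 (0.985), HEATR3 and CEP55 to SRPK2. The 12 libraries share the group differences and the GC slopes given above, so these values describe likeness of pattern only.

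The SR proteins are the substrates of these kinases. Of 14 genes listed, 12 were expressed enough to be tested (not SRSF8 or SRSF12). In siControl cells hypoxia raised 2 and lowered 4, beside 25.3% of all genes called, with a median log2 fold change of -0.10 against 0.02 for all genes tested. SRSF11 rose by 0.33 on the log2 scale, from 173.8 ± 11.8 to 218 ± 16.5 CPM (SD, n = 3). SRSF10 (-0.31), SRSF2 (-0.27) and SRSF7 (-0.22) fell. In siARNT cells hypoxia lowered SRSF2 alone (-0.33), where 4.09% of all genes were called. Knockdown raised SRSF9 in normoxia (0.23), and in hypoxia it lowered SRSF11 (-0.43) and raised SRSF7 (0.15), with medians of 0.04 and 0.09. These 1 and 2 calls of 12 stand beside 20.2% and 29.1% of all genes. None of the 12 was called in the interaction by edgeR, where 4.69% of all genes were called at the adjusted threshold. At an unadjusted p under 0.05 there were 2 of the 12, with no share of all genes at that threshold given here.

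A second list of 30 genes held other kinases, phosphatases, import factors, chaperones and speckle proteins that act on or with SR proteins, and 28 of them were tested. Hypoxia in siControl raised 3 and lowered 3 of the 28, beside 25.3% of all genes called, with a median of 0.00. The dual-specificity kinases DYRK1B (0.97, from 1.48 to 2.9 CPM) and DYRK2 (0.74, from 156.1 to 261 CPM) rose, and the chaperone factors DNAJC8 (-0.43) and AHSA1 (-0.41) fell. None was called for hypoxia in siARNT by edgeR, where 4.09% of all genes were called at the adjusted threshold. At an unadjusted p under 0.05 there were 2 of the 28, with no share of all genes at that threshold given here. Knockdown in normoxia, with 20.2% of all genes called, raised PPP1CA (0.72), a catalytic subunit of protein phosphatase 1, and SRRM1 (0.21), a speckle protein. It lowered the kinases HIPK2 (-0.66) and DYRK3 (-0.35). PPP1CA varied widely between libraries, at 85.1 ± 11.6 CPM in normoxia siControl and 140.5 ± 40.9 in normoxia siARNT (SD, n = 3). Alternative gene fits were examined for the 6 CLK and SRPK genes only. In hypoxia knockdown raised 6 and lowered 3, beside 29.1% of all genes called. HIPK2 (-0.81), PPP1CB (-0.51) and DYRK2 (-0.42) fell, and TNPO1 (0.32), an import receptor, rose. DYRK2 (-0.45, adjusted p 0.0386) and AHSA1 (0.36, adjusted p 0.0262) were called in the interaction by edgeR, beside 4.69% of all genes. SRPK3, the third SRPK gene, was too low to be tested.

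Splicing was measured as percent spliced in (PSI), the share of reads for the inclusion form of an event, which for a retained intron is the mean read coverage of the intron against the reads of the junction that removes it. Of the 60 events, 24 were exon skips, 11 intron retentions, 13 alternative 3′ sites, 6 alternative 5′ sites, 4 multiple exon skips and 2 mutually exclusive exons. CLK1 had 9 of its 10 events tested, CLK2 5 of 14, CLK3 1 of 5, CLK4 9 of 13, SRPK1 7 of 13 and SRPK2 3 of 5. No event of the 6 genes was called in any of the 5 comparisons (edgeR quasi-likelihood on inclusion and exclusion counts, adjusted over 36277 events), and none was called by limma. Calls were rare throughout: 0.0689% of events for hypoxia in siControl, 0.0193% for hypoxia in siARNT, 0.273% and 0.138% for siARNT in normoxia and in hypoxia, and 0.0138% in the interaction. An unadjusted p under 0.05 (edgeR) was reached by 8, 0, 5, 5 and 2 of the 34 events in that order. Of the 8 for hypoxia in siControl, 5 were intron retentions, and retentions within a gene share reads. The share of all events at that unadjusted threshold is not given here, so these counts have no background. On simulated exon skips of intermediate inclusion, a shift of 20 PSI points was called in 41% and one of 30 points in 72%. Exon skip changes of that size can thus be missed. Retentions, whose inclusion value is a coverage, were not simulated, so these rates need not hold for the retentions described next.

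All 8 tested retentions of the CLK genes lie around exon 4: the intron after it in all 4 genes, and in CLK1 and CLK4 also the intron before it and the whole stretch from exon 3 to exon 5. Events within a gene share reads, and the whole stretch contains exon 4, whose own reads count there as retained. In siControl cells all 6 retentions of CLK1 and CLK4 were higher in hypoxia than in normoxia without overlap between libraries, and those of CLK2 and CLK3 overlapped. That is 6 of 8, against 16.4% of all retentions tested. None of the 8 was without overlap for hypoxia in siARNT (background 11.2%), 2 were for siARNT in normoxia (17.9%) and 4 for siARNT in hypoxia (15.5%).

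The intron after exon 4 of CLK1 (chr2:201724470-201724847 in the tables' build) had a PSI of 37.3, 32.6 and 35.1% in replicates A, B and C of normoxia siControl and 55.7, 60.7 and 48.0% in hypoxia siControl. With siARNT it was 36.3, 38.5 and 47.7% in normoxia and 41.8, 45.6 and 49.4% in hypoxia. The siControl groups were apart by 19.8 points, and the siARNT groups overlapped. The log2 odds of retention were higher by 1.16 in hypoxia siControl (SE 0.23, p 2.97e-04 and adjusted p 0.152 by edgeR, not called). With the transfected well (assumed from siRNA and replicate letter) as a replicate block the adjusted p was 0.0391. This was the only member event called in any alternative run. With the letter as a replicate block it was 0.0742, and over all alternatives it ran from 0.0391 to 0.63. The change was 0.29 in siARNT (adjusted p 0.983), and the interaction was -0.87 (SE 0.33, p 0.0238, adjusted p 1).

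The intron before exon 4 of CLK1 had a PSI of 50.8, 49.8 and 49.5% in normoxia siControl, 65.2, 72.7 and 60% in hypoxia siControl, 49.4, 47.6 and 59.9% in normoxia siARNT and 52.8, 58.7 and 52.8% in hypoxia siARNT. Hypoxia siControl was above every library of the other groups. The log2 odds differed by 0.96 for hypoxia in siControl (adjusted p 0.303) and by -0.70 for siARNT in hypoxia (adjusted p 0.501). The stretch from exon 3 to exon 5 went from 56.1 ± 4.5% to 70.6 ± 4.8% between the siControl groups (adjusted p 0.429) and was at 68.3 ± 3.5% in hypoxia siARNT.

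In CLK4 the intron after exon 4 had a PSI of 46.3, 36.6 and 49.2% in normoxia siControl and 58.3, 72 and 54.6% in hypoxia siControl. It was at 37.5, 35.6 and 60.5% in normoxia siARNT, where replicate C was high, and at 44.5, 42.3 and 47.9% in hypoxia siARNT. Hypoxia siControl had the highest mean, 17.6 points above normoxia (log2 odds 0.92, SE 0.38, adjusted p 0.735), and siARNT in hypoxia differed from it by -16.7 points (adjusted p 0.692). The intron before exon 4 went from 35.5 ± 2% to 46.6 ± 11% and the whole stretch from 57.6 ± 9.4% to 74.3 ± 1.1% between the siControl groups (adjusted p 0.852 and 0.548). Mean intron coverage plus junction reads averaged 39.1 to 53.3 per library for these events, against 169.3 to 215.4 for those of CLK1.

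CLK2 and CLK3 showed another order of groups. The intron after exon 4 of CLK2 had a PSI of 82.2, 71.1 and 68.5% in normoxia siControl and 72.1, 65.1 and 77.0% in hypoxia siControl. With siARNT it was 57.7, 46.0 and 45.9% in normoxia and 53.4, 64.7 and 57.1% in hypoxia. The siARNT libraries were below the siControl libraries at both oxygen levels, with differences of -24.1 points in normoxia (log2 odds -1.46, SE 0.33, p 0.000873, adjusted p 0.131) and -13 points in hypoxia (-0.79, SE 0.34, adjusted p 0.717). In reads per M gene counts, the junction that removes this intron averaged 0.315 ± 0.124 in normoxia siControl and 0.669 ± 0.0958 in normoxia siARNT (SD, n = 3), while coverage of the intron was 0.86 ± 0.0595 and 0.67 ± 0.135. The matching intron of CLK3 had a PSI of 33.0, 33.3 and 40.0% in normoxia siControl and 17.3, 15.5 and 22.8% in normoxia siARNT, a difference of -16.9 points (log2 odds -1.24, adjusted p 0.449). It was at 38.6, 26.5 and 40.2% in hypoxia siControl and 22.7, 31.2 and 28.1% in hypoxia siARNT. Mean intron coverage plus junction reads averaged 29.4 per library for it. Without replicate B of normoxia siARNT, the library with the steepest GC slope, the log2 odds were -1.31 for CLK2 and -1.15 for CLK3 (adjusted p 0.352 and 0.717).

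**Figure D3:**
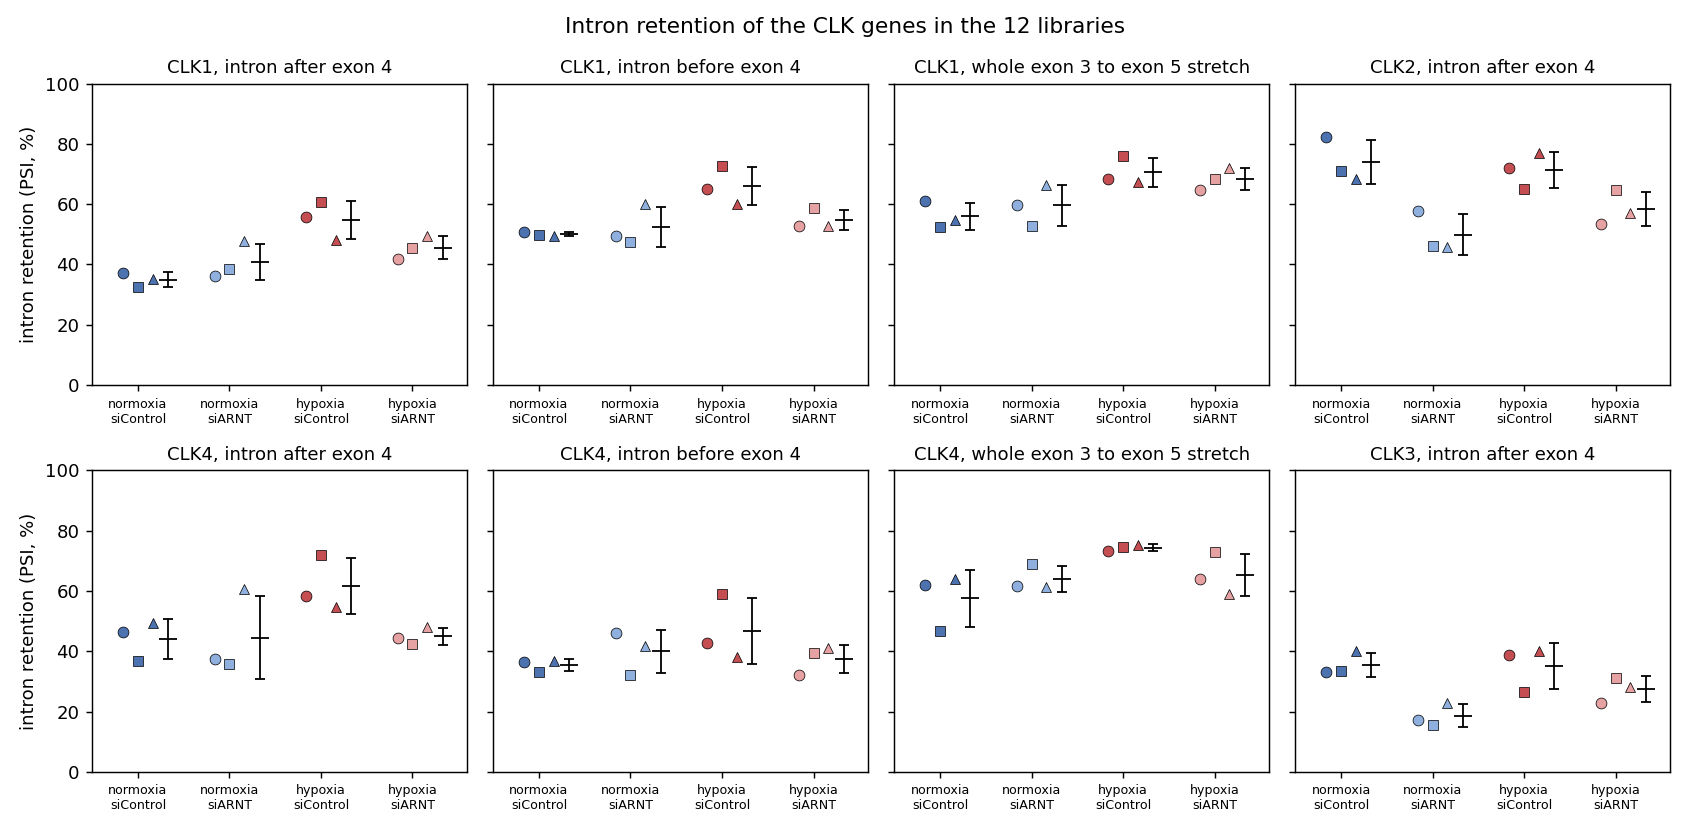
Intron retention (PSI in percent, vertical axis from 0 to 100) of the 8 tested retentions of the CLK genes, all around exon 4, in each library. Circles, squares and triangles are replicates A, B and C, and the bar is the mean ± SD (n = 3). Hypoxia siControl has the highest mean in the CLK1 and CLK4 panels (54.8% and 61.6% after exon 4), and normoxia siARNT the lowest mean in the CLK2 and CLK3 panels (49.8% and 18.5%).

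For skipping of exon 4 of CLK1 the siControl groups overlapped. Inclusion of the exon was 60.7, 54.5 and 56.3% in normoxia siControl, 52.6, 56.5 and 57.8% in hypoxia siControl, 59.9, 52.8 and 57.9% in normoxia siARNT and 61.3, 59.8 and 65.1% in hypoxia siARNT. Hypoxia differed from normoxia by -1.5 points in siControl (log2 odds -0.15, SE 0.17, adjusted p 0.954). The hypoxia siARNT libraries were above the hypoxia siControl ones by 6.5 points (log2 odds 0.40, SE 0.19, p 0.0499, adjusted p 0.742). In CLK4 inclusion of the exon was 65 ± 6.4, 69.6 ± 8.6, 68 ± 9.7 and 70.2 ± 8.8% in normoxia siControl, hypoxia siControl, normoxia siARNT and hypoxia siARNT, groups that all overlapped. The exon 4 skips of CLK2 (mean 18.3 reads) and CLK3 (15 reads) were too thin to be tested. Their inclusion ran from 76.1 to 84.4% and from 94 to 96.1% over the group means.

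Levels of each form of CLK1 place the share beside the amount. In reads per M gene counts, junctions that join exon 4 to its neighbours stood at 1.6 ± 0.108 in normoxia siControl and 1.75 ± 0.152 in hypoxia siControl, and the junction that skips it at 1.19 ± 0.0789 and 1.39 ± 0.11 (SD, n = 3). The junction that removes the intron after exon 4 was at 1.72 ± 0.0146 and 1.74 ± 0.203, while coverage of that intron went from 0.93 ± 0.101 to 2.13 ± 0.462. Elsewhere in CLK1, junctions of the 161-base exon went from 4.07 ± 0.175 to 6.03 ± 0.228, those of a 167-base exon from 5.09 ± 0.544 to 8.13 ± 0.939, and a junction near the 3′ end from 7.89 ± 0.268 to 11.3 ± 0.878. Reads of these 3 other places were thus higher in hypoxia by more than the spread of the libraries, as the gene count was. Junctions into exon 4 and the junction that removes the intron after it overlapped between the siControl groups, and the skipping junction was just without overlap. In hypoxia siARNT the intron stood at 1.41 ± 0.0949, the junctions into exon 4 at 1.79 ± 0.146 and the skip at 1.09 ± 0.105. These levels were compared as descriptions, with no test.

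**Figure D4:**
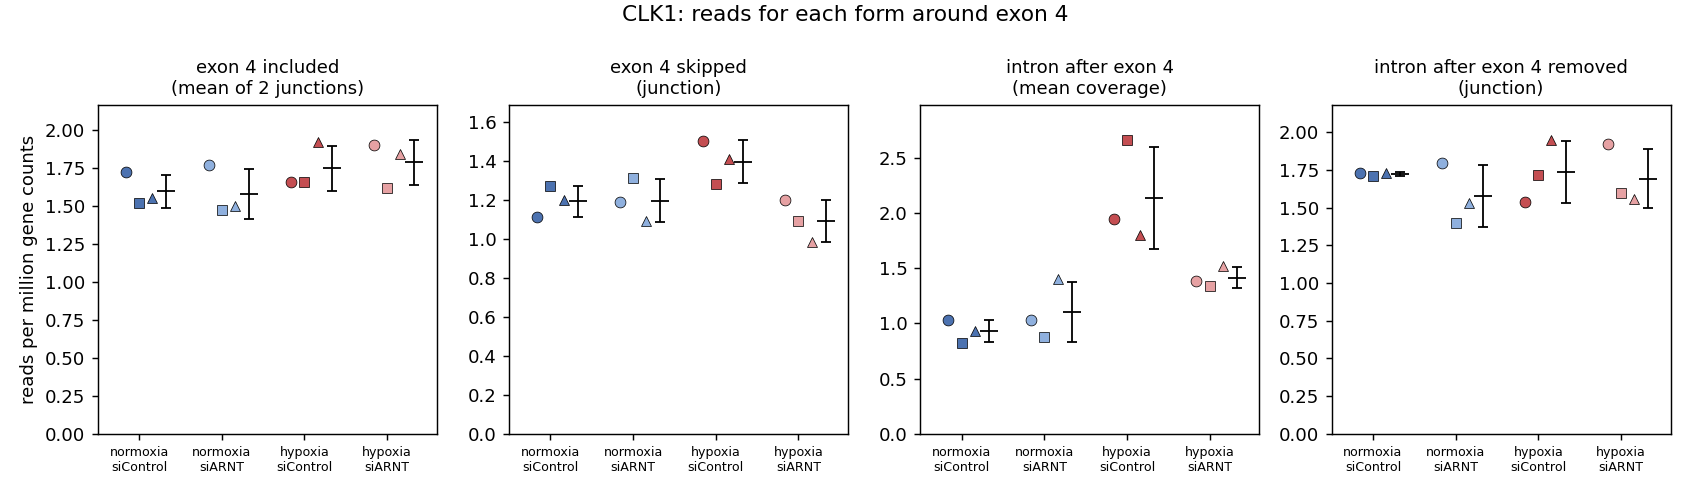
CLK1 reads per M gene counts (vertical axes from 0) for 4 forms around exon 4 in each library, with the mean ± SD (n = 3) beside the points. Coverage of the intron after exon 4 averages 0.93 in normoxia siControl and 2.13 in hypoxia siControl, and the junction that removes it 1.72 and 1.74.

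Other exon skips were tested in CLK1, CLK2 and CLK4. The 161-base and 167-base exons of CLK1 were included at 97.5 to 97.9% and 90.3 to 93.2% over the group means. A 67-base exon of CLK4 (chr5:178049394-178049460 in the tables' build) was included at 15.3, 20 and 20.8% in normoxia siControl and 6.7, 10.7 and 5.9% in hypoxia siControl, groups that did not overlap (log2 odds -1.53, SE 0.48, adjusted p 0.563, with 42.6 reads per library). It was at 7.6, 13.5 and 8.4% in normoxia siARNT and 7.8, 4.5 and 2.9% in hypoxia siARNT. A 59-base exon of CLK4, scored against the same skipping junction, was included at 51.5 ± 9.4% in normoxia siControl and at 37.3 to 37.8% in the other 3 groups (lowest adjusted p 0.551). A 41-base exon of CLK4 was included at 9.2 ± 1.8% in normoxia siControl, 5.5 ± 0.5% in hypoxia siControl, 4.7 ± 0.7% in normoxia siARNT and 3 ± 1.2% in hypoxia siARNT (lowest adjusted p 0.557). The 2 overlapping skips of CLK2, of a 131-base and a 136-base exon, had inclusion of 8 to 11.4% and 15.4 to 20.2%.

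In the SRPK genes 10 events were tested. The most deeply read event of SRPK1, a multiple exon skip with 285.7 reads per library, had group means of 98.1 to 99%. A 96-base exon of SRPK1 (chr6:35872656-35872751 in the tables' build) was included at 4.8, 3.4 and 6.1% in normoxia siControl and 3.2, 0.6 and 0.7% in hypoxia siControl (p 0.0288, adjusted p 0.719). With siARNT it was at 5.1 ± 0.1% in normoxia and 3.4 ± 1.9% in hypoxia. SRPK2's most deeply read exon skip was included at 36.1, 34.5, 34.8 and 31.9% in normoxia siControl, hypoxia siControl, normoxia siARNT and hypoxia siARNT, and its 1 retained intron stood at 94.4 to 96.3%.

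The promoters of the 6 genes (RefSeq, GRCh38.p14, 300 bases per annotated start) were searched for ACGTG and GCGTG, the core letters bound by HIF, on both strands, with overlapping matches counted separately. At least 1 match is found in 48.4% of 35116 promoters and 3 or more in 10.1%. CLK1 had 3 and 2 matches at its 2 listed starts, CLK2 5, CLK3 1 and 2, CLK4 3, SRPK1 none, and SRPK2 0 to 2 over 4 starts. The windows of the 2 CLK1 starts overlap, and the matches of the second are also among those of the first. A CACGTG, found in CLK2 and in CLK4, counts as 2 matches. A match is a description of the letters and does not show binding.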

How the data were processed

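Gene counts and splicing event tables of 12 stranded poly(A) libraries were analysed. The authors deposited whole-number read counts per gene, and event tables with read counts, coverage signal of introns and a PSI fraction per library. The submitters' processing notes name STAR 2.4.2a, Trimmomatic and GRCh38.p10, with no roles; the splicing caller is not given in the sources used here. Reads assigned to no gene, 22.7 to 25.2% per library, were left out. Depth was 38.5 to 84.3 M gene counts.

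Genes were tested with edgeR 4.0.16 (TMM, filterByExpr, robust quasi-likelihood; R 4.3.3) over 12 libraries with 4 group means and 5 comparisons, with Benjamini-Hochberg adjustment in each. Event PSI recomputed from the deposited counts matched the deposited fraction within 0.01 in 100% of values. Events with a mean of at least 20 reads, and at least 2 of the rarer form, were tested with edgeR on inclusion and exclusion counts. For a retention the inclusion value was the mean coverage of the intron, which was added to the junction reads in these limits. The fit with an estimated negative binomial dispersion was run on the data first; 24 dispersion settings were then compared on simulated exon skips, and a quasi-binomial fit was chosen there. The simulation was itself revised along the way. The estimated-dispersion fit was kept as an alternative, and it called no event of the 6 genes either. On simulated data for hypoxia in siControl, 40% of 1.5-fold and 75% of 2-fold gene changes were recovered over 16755 genes. Of the simulated exon skips that the event fit called, 5.83% were unchanged ones, with 17005 events tested.

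The 6 genes, the lists and the tests were chosen with earlier results of these data known. The text names the 6 genes, up to 4 called genes per list and comparison with the largest change, and the 3 genes most like each of the 6, except where a gene is not reported here. Alternatives were other scalings, DESeq2 1.42.0, limma 3.58.1 (events), other filters, a GC correction (97.3% of genes had a GC value), replicate blocks and leaving out each library. Replicates of a group differed by more than counting noise (chi-square per degree of freedom 3.95 to 79.5). Same-lettered libraries were taken to come from 1 transfected well in the hypoxia comparisons. The sample titles give the letter and no well, so this pairing was assumed. Their deviations in A, B and C correlated with r of 0.51, 0.744 and 0.495 for hypoxia in siControl. For hypoxia in siARNT r was 0.908, -0.122 and -0.851, so only replicate A had a positive same-letter correlation there. Across the siRNAs, same-lettered libraries had r of 0.703, 0.88 and 0.387 for siARNT in normoxia. For siARNT in hypoxia the values were 0.677, -0.087 and -0.719.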

Additional observations from a re-analysis of the deposited data

How the results depend on the processing

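Gene counts of calls that differed by over 1.5 times were as follows. For hypoxia in siARNT, where 1 gene was called, the count was 2 with total count scaling, a 5 CPM filter, the GC correction, or that with the replicate block, and 0 with the 6 libraries alone. For siARNT in normoxia it was 2, against 0, with the GC correction with and without the block. For the interaction it was 1, against 0, with DESeq2, with no filter and with the letter as a replicate block, and 3 with the GC correction with and without the block. Leaving out 1 library gave 3 to 5 calls for hypoxia in siControl, 0 to 2 for hypoxia in siARNT, 2 to 5 for siARNT in hypoxia and 0 to 1 for the interaction. The transfected-well replicate block gave 1 called event for hypoxia in siControl, against 0. With the letter block CLK2 was called for siARNT in hypoxia (-0.28, adjusted p 0.0183) and CLK3 in the interaction (-0.73, adjusted p 0.0435), and blocks alone changed no other gene call.

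No change of sign listed here was of a called value; with the new sign, SRPK2 for siARNT in normoxia was called with the GC correction. For hypoxia in siARNT, CLK2 was at 0.032 with the GC correction, 0.031 with the block added and 0.015 with the 5 CPM filter. CLK3 was at 0.001 with RLE scaling, 0.022 with total count scaling, 0.042 with the 5 CPM filter, 0.009 with 6 libraries, 0.014 with the letter block, 0.009 with the well block and 0.014 with GC and block. SRPK2 was at 0.011 with the 5 CPM filter. For siARNT in normoxia, the GC correction gave 0.018 for CLK1, 0.05 for CLK4 and 0.128 for SRPK2, and with the block 0.018, 0.05 and 0.127. SRPK2 was also at 0.023 with total count scaling, 0.007 with no filter and 0.005 with the 5 CPM filter. The retained intron after exon 4 of CLK4 was at 0.019 with limma there.

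Without 1 library, the log2 fold change for hypoxia in siARNT ran from -0.122 to 0.071 for CLK2, -0.121 to 0.191 for CLK3 and -0.098 to 0.043 for SRPK2, and that of SRPK2 for siARNT in normoxia from -0.046 to 0.026. Log2 odds for siARNT in normoxia ran from -0.157 to 0.107 for the CLK1 exon 4 skip, -0.01 to 0.346 for the CLK1 stretch, -0.086 to 0.218 for the intron before CLK1 exon 4 and -0.459 to 0.154 for the intron after CLK4 exon 4. For siARNT in hypoxia the CLK1 stretch ran from -0.285 to 0.004. For hypoxia in siControl the CLK2 intron ran from -0.486 to 0.068 and the CLK3 intron from -0.232 to 0.277. For hypoxia in siARNT the CLK4 introns ran from -0.141 to 0.472 after exon 4, -0.444 to 0.013 before it and -0.07 to 0.273 over the stretch. The cause of these differences was not tested. Of 26 events not tested, 12 had under 20 reads per library, which depth limits.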
